A study of Homo sapiens with 16 samples.

Results

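The mRNA of 10 keratins was followed in a pair of established ER-negative human breast cancer cell lines, MDA-MB-468 and MDA-MB-231. The 6 basal keratins were KRT5, KRT6A, KRT6B, KRT14, KRT16 and KRT17, and the 4 luminal keratins were KRT7, KRT8, KRT18 and KRT19. They were taken from the table of 18332 genes by symbol, from a list chosen with earlier results of these data known. Each line had been kept for 48 hours in low glucose (5 mM, the control) or high glucose (25 mM, a culture model of hyperglycemia), with 4 samples per group and 16 in all. None of the 4 groups was an osmotic control. Per the study's methods, cells were conditioned in low-glucose medium and then treated in flasks, without serum. The base medium of the treatment is not named for each line. For routine growth MDA-MB-231 was kept in DMEM and MDA-MB-468 in RPMI, so that line and growth medium cannot be told apart. Each line is a single line, and the labels do not say whether the 4 replicates were separate cultures, so the p-values measure the spread between these samples, which may be technical.

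Keratins are the intermediate filament proteins of epithelial cells. A filament needs a type II keratin (here KRT5, KRT6A, KRT6B, KRT7 and KRT8) together with a type I keratin (here KRT14, KRT16, KRT17, KRT18 and KRT19), and the genes of the former lie clustered on chromosome 12 and those of the latter on chromosome 17, except KRT18, which lies next to KRT8. In the mammary gland KRT5 and KRT14 are pathologists' markers of the basal layer and of basal-like tumors, whereas KRT8 and KRT18 mark the luminal layer. KRT6, KRT16 and KRT17 are induced in wounded and hyperproliferative epithelia.

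In low glucose every one of the 10 keratins was higher in MDA-MB-468 than in MDA-MB-231, as were 45.0% of all genes tested, and the basal keratins were nearly absent from the latter. High glucose raised 9 of the 10 keratins in MDA-MB-468, with KRT6B raised 2.37-fold and KRT14, KRT16 and KRT19 raised by 41.0% to 72.7%. Of all genes tested in that line, 24.9% were called higher. The call for KRT6A, which rests on few reads, did not hold with edgeR, DESeq2 or without any of 6 libraries. That for KRT7 was lost after a correction for transcript length and under quantile normalization. In MDA-MB-231, 6 of the 10 keratins were tested. Only KRT18 was called higher, by 7.22%, where 5.71% of all genes tested were. That call was lost after a correction for transcript length and without any 1 of several libraries. The response of KRT19 differed between the lines. In such bulk samples, fewer cells expressing a keratin and less RNA of it per cell cannot be told apart.

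Several of these genes share sequence with others, which bears on how their reads can be assigned. Of all stretches of 50 bases in the canonical transcript, 39.2% of those of KRT6A and 46.6% of those of KRT6B also occur in a transcript of another gene, mostly KRT6C and each other. The share was 24.2% for KRT14 and 21.8% for KRT16, 39.2% for KRT8 and 36.7% for KRT18, whose closest matches are pseudogenes, 17.4% for KRT17, 4.52% for KRT5, 1.79% for KRT19 and 1.08% for KRT7. The longest identical coding stretch of KRT6A and KRT6B has 269 bases, and that of KRT14 and KRT16 has 158 bases. They are printed with up to 15 bases on either side, from GENCODE transcripts on GRCh37, in the direction of transcription, with the bases that differ within a pair in capitals. All 4 lie in the first exon, in coding sequence on the minus strand, at chr12:52886542-52886840 for KRT6A, chr12:52845432-52845730 for KRT6B, chr17:39742605-39742792 for KRT14 and chr17:39768453-39768640 for KRT16.
KRT6A: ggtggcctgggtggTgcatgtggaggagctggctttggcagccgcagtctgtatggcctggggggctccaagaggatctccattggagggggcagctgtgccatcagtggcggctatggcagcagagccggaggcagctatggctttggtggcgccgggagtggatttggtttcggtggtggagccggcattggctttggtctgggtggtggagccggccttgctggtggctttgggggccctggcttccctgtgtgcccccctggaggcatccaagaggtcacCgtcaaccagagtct
KRT6B: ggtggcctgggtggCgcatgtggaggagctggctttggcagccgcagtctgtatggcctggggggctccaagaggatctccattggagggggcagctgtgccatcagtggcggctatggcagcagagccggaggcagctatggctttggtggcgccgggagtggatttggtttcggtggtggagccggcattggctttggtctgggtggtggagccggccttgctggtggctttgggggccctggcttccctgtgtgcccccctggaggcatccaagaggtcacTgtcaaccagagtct
KRT14: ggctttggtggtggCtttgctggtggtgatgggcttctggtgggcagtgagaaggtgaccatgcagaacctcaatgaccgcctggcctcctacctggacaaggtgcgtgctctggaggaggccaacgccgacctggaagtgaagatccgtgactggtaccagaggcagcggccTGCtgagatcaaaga
KRT16: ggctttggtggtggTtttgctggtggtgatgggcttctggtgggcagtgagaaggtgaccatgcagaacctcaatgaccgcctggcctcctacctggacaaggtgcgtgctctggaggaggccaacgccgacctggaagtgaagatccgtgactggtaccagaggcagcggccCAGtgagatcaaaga
A read that falls inside such a stretch fits both genes of the pair. How the authors counted such reads is not given in the sources used here, so the values of KRT6A, KRT6B, KRT14 and KRT16 are uncertain to that extent. Those of KRT8 and KRT18 are uncertain in the same way, through stretches shared with pseudogenes. The gene models of KRT8 and KRT18 also overlap, on opposite strands of chromosome 12 (GRCh37, 53290971 to 53343738 for KRT8 and 53342655 to 53346690 for KRT18), and whether strand was used in counting is not stated.

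The libraries held 14094597 to 24425916 reads assigned to the genes of the deposited table, and reads outside these genes are not included. By this total 3 reads, the floor used here, were worth 0.123 to 0.213 CPM (reads scaled to the library's total over these genes). Levels are given as normalised read counts, that is, reads scaled by the size factor of their library. The markers of epithelial cells summed to 122 to 162 CPM in MDA-MB-231 libraries and to 1248 to 1373 CPM in those of MDA-MB-468, where all 8 were detected. ESR1, the estrogen receptor gene, had a mean of at most 57.9 normalised counts in any group. ACTA2, which marks myoepithelial cells, was at 54.7 ± 2.86 in low-glucose MDA-MB-231 and at 0.975 ± 0.917 in low-glucose MDA-MB-468 (SD, n = 4). Of the other myoepithelial markers MYLK also differed between these groups, at 1347 ± 33.4 and 79.8 ± 6.79. MYH11 (12.5 ± 3.81 and 11.2 ± 2.67) and OXTR (16.9 ± 6.51 and 14.7 ± 5.28) were alike in both, and CNN1 was not in the deposited table. The leukocyte markers summed to 9.67 to 12.2 CPM in low-glucose and to 17.7 to 21.2 CPM in high-glucose MDA-MB-468, where CD14 and CSF1R were called higher and PTPRC lower. Their part in the keratin results was not tested.

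KRT5, the type II keratin of basal cells, was abundant in MDA-MB-468 and close to 0 in MDA-MB-231. MDA-MB-468 libraries in low glucose held 15726, 14567, 15486 and 14822 normalised counts, and those in high glucose held 17187, 16767, 17320 and 17928. The MDA-MB-231 libraries held between 0 and 3 reads each. KRT14, its type I partner, was at 1091, 1081, 1094 and 1086 in low-glucose and at 1841, 1793, 1942 and 1947 in high-glucose MDA-MB-468, against 0 to 2 reads per MDA-MB-231 library. For both genes every high-glucose MDA-MB-468 library lay above every low-glucose one. In low glucose, MDA-MB-468 exceeded MDA-MB-231 by 13038-fold for KRT5 (5 reads in the 4 MDA-MB-231 libraries together, 95% counting interval 5587 to 40156) and by 2334-fold for KRT14 (2 reads, fewer than the floor of 3, so that the ratio itself is uncertain within 646 to 19276). These intervals cover counting error only.

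KRT6A and KRT6B, type II keratins of stressed and wounded epithelium, had no read in any of the 8 MDA-MB-231 libraries. KRT6B was at 429, 448, 424 and 430.2 in low-glucose MDA-MB-468 and at 1004, 969, 1109 and 1038 in high glucose, again without overlap. KRT6A was far lower, at 26.9, 13.3, 18.4 and 11.7 in low glucose and at 33.1, 18.6, 36.6 and 29.5 in high glucose, and its groups overlapped. Against a floor of 3 reads over the 4 MDA-MB-231 libraries, KRT6B was at least 618-fold and KRT6A at least 25.8-fold higher in low-glucose MDA-MB-468.

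KRT16, the usual type I partner of KRT6, was detected in both lines. Low-glucose MDA-MB-468 held 2000, 1767, 1919 and 1836 normalised counts and high-glucose MDA-MB-468 held 2804, 2810, 2810 and 2957, while MDA-MB-231 held 4.29, 11.7, 10.1 and 7.20 in low glucose and 19.5, 10.5, 11.1 and 18.1 in high glucose. The groups were separate in MDA-MB-468 and overlapped in MDA-MB-231. KRT17, a keratin of hair follicles and basal-like tumors, was at 7984, 7325, 7662 and 7352 in low-glucose and at 7832, 7637, 8171 and 8222 in high-glucose MDA-MB-468, with overlap. In MDA-MB-231 it was at 4.29, 14.7, 14.5 and 1.03 in low glucose and at 8.76, 7.36, 15.8 and 5.71 in high glucose, which is 1 to 17 reads per library. MDA-MB-468 exceeded MDA-MB-231 in low glucose by 238-fold for KRT16 and by 932-fold for KRT17.

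The 4 luminal keratins were abundant in both lines. KRT8 was at 10903, 10594, 10905 and 9910 in low-glucose and at 10942, 10763, 10700 and 11382 in high-glucose MDA-MB-231, against 42987, 39934, 42228 and 40455 and then 47025, 45317, 48177 and 49338 in MDA-MB-468. KRT18, its type I partner, was at 6886, 6672, 6894 and 6284 and then 7362, 7029, 7072 and 7187 in MDA-MB-231, against 20287, 19060, 20206 and 19561 and then 21727, 20185, 21675 and 22363 in MDA-MB-468. With glucose the groups of these normalised counts separated for KRT8 in MDA-MB-468 only, and for KRT18 in MDA-MB-231 only. This depends on the scaling, since with TMM factors the groups of KRT18 separated in MDA-MB-468 as well. High-glucose values lay above all low-glucose values for 22.2% of all genes tested in MDA-MB-468 and 7.63% in MDA-MB-231.

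KRT7, a keratin of ducts and glands, was at 3147, 3289, 3393 and 2881 in low-glucose and at 3318, 3244, 3130 and 3159 in high-glucose MDA-MB-231, against 19821, 18357, 19375 and 18642 and then 20168, 19673, 20722 and 21219 in MDA-MB-468. KRT19, the smallest keratin, which lacks a tail domain, was at 12683, 12171, 13002 and 11325 and then 12306, 11722, 11626 and 12060 in MDA-MB-231, against 26635, 24496, 25709 and 25167 and then 35072, 34285, 36584 and 37924 in MDA-MB-468. Only KRT19 in MDA-MB-468 was separated by glucose, and the plot of keratin levels by library shows it beside the others. With TMM factors, KRT7 was separated in MDA-MB-468 too. In low glucose MDA-MB-468 exceeded MDA-MB-231 by 2.08-fold for KRT19, 2.96-fold for KRT18, 3.92-fold for KRT8 and 6.03-fold for KRT7, and all 10 keratins passed the threshold for the line difference (limma on log2(value + 1), adjusted p of 1.19e-10 for KRT6A and lower for the other 9), where 45.0% of the 17115 genes tested were called higher in MDA-MB-468.

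**Figure D1:**
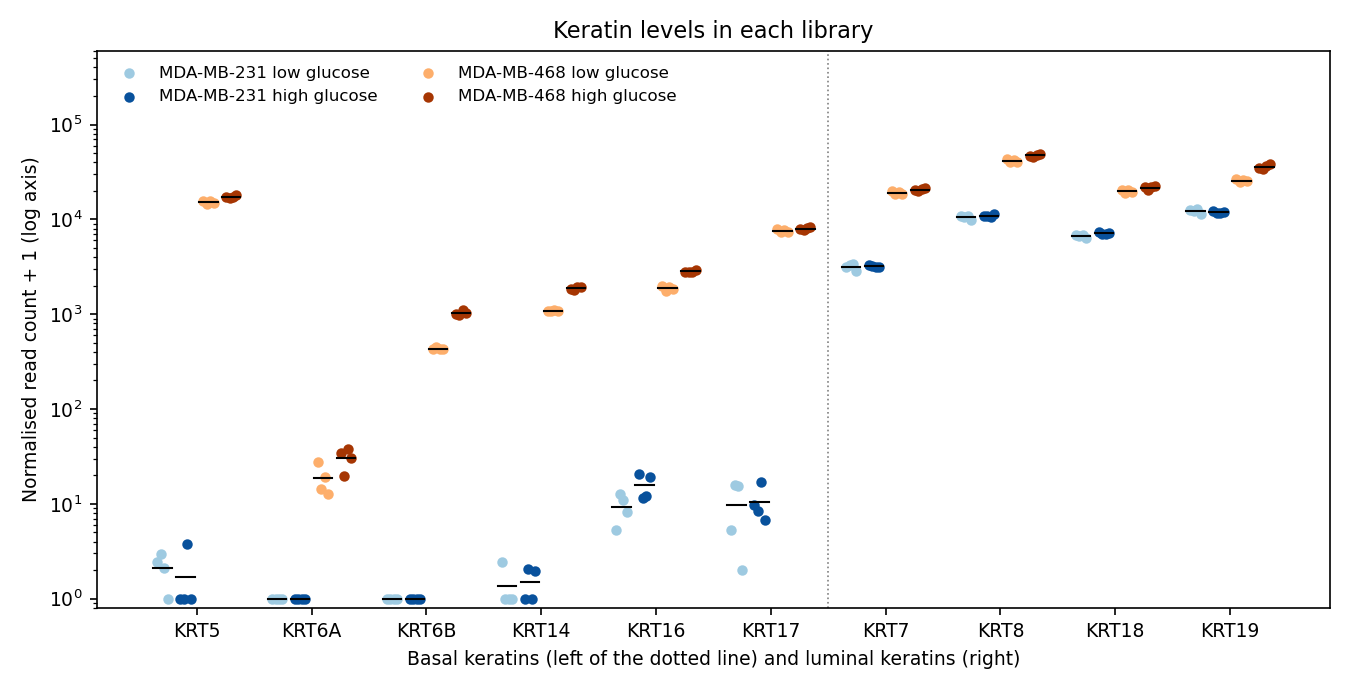
Normalised read count plus 1, on a log axis, of each keratin in each of the 16 libraries, with groups by color and the group mean as a black bar. The 6 basal keratins lie at 0 to 19.5 normalised counts in MDA-MB-231, and from 11.7 for KRT6A to 17928 for KRT5 in MDA-MB-468, while the 4 luminal keratins are at 2881 or more in all libraries.

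High glucose was then compared with low glucose within MDA-MB-468. All 10 keratins passed the filter on low values (at least 0.5 CPM in 2 of the 8 libraries), and 9 were called higher at an adjusted p under 0.05 in limma, where 24.9% of the 15757 genes tested were called higher and 22.7% lower. The median log2 fold change over all genes tested was 0.00. KRT6B rose most, by 1.25 ± 0.05 (log2 fold change ± SE, adjusted p = 1.62e-11, limma), which is a 2.37-fold rise. KRT14 rose by 0.79 ± 0.04 (adjusted p = 1.09e-10) and KRT16 by 0.60 ± 0.04 (adjusted p = 3.80e-09). KRT5, the most abundant basal keratin, rose by 0.19 ± 0.03 (adjusted p = 7.00e-05). KRT17 was not called, at 0.07 ± 0.03 (adjusted p = 0.0925, 95% interval 0.00 to 0.14), and it passed when high-glucose replicate 2 (adjusted p = 0.0347) or low-glucose replicate 1 (adjusted p = 0.0310) was left out.

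KRT6A, with 80 reads in the 4 low-glucose and 118 reads in the 4 high-glucose libraries, rose by 0.74 ± 0.29 (adjusted p = 0.0426, limma). This call was lost with edgeR (adjusted p = 0.0558) and with DESeq2 (adjusted p = 0.0757) on the recovered reads, and when any of high-glucose replicates 1, 3 or 4 or low-glucose replicates 2, 3 or 4 was left out (adjusted p from 0.0564 to 0.125). Given the stretch shared with KRT6B (433 against 17.6 normalised counts on average in low glucose), how many of these reads belong to KRT6A was not tested.

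Among the luminal keratins in MDA-MB-468, KRT19 rose by 0.50 ± 0.03 (adjusted p = 6.18e-09, limma), a 1.41-fold rise. The others rose less: KRT8 by 0.20 ± 0.03 (adjusted p = 7.95e-05), KRT18 by 0.12 ± 0.03 (adjusted p = 0.00624) and KRT7 by 0.10 ± 0.03 (adjusted p = 0.0126). Genes of 1300 to 2400 bases, the range of the keratin transcripts, had a median log2 fold change of 0.05 in this comparison, and after a correction for transcript length KRT7 no longer passed (adjusted p = 0.063). The high-glucose values lay above all low-glucose values for 6 of the 10 keratins (KRT5, KRT6B, KRT14, KRT16, KRT8 and KRT19), and for 22.2% of all genes tested.

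In MDA-MB-231, 6 of the 10 keratins passed the filter, and KRT5, KRT6A, KRT6B and KRT14 did not. Of these 6, 1 was called higher and none lower, where limma called 5.71% of the 14884 genes tested higher and 9.37% lower. KRT18 rose by 0.10 ± 0.03 (adjusted p = 0.0461, limma), and its high-glucose values lay above all low-glucose values, as they did for 7.63% of the genes tested. The call was lost without any of high-glucose replicates 1 to 4 or low-glucose replicates 2 or 4 (adjusted p from 0.0652 to 0.142) and after the correction for transcript length (adjusted p = 0.228). KRT16, with 34 reads in low and 61 reads in high glucose, stood at 0.79 ± 0.37 (adjusted p = 0.176, 95% interval 0.01 to 1.57) and KRT17 at 0.45 ± 0.58 (adjusted p = 0.675, −0.77 to 1.68). Both intervals hold the change seen in MDA-MB-468. The abundant KRT7, KRT8 and KRT19 stood at 0.02, 0.05 and −0.04, with 95% intervals of −0.07 to 0.11, −0.02 to 0.12 and −0.12 to 0.04.

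**Figure D2:**
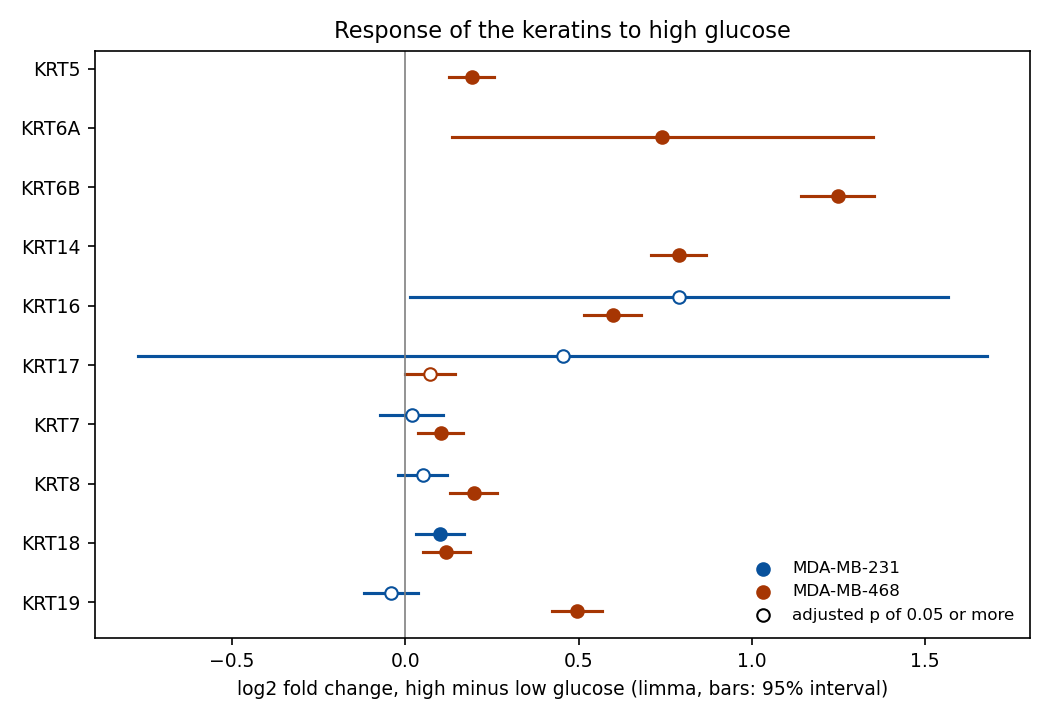
log2 fold change from low to high glucose for each keratin in both lines, with 95% intervals from limma. Filled points had an adjusted p below 0.05. KRT6B in MDA-MB-468 lies farthest to the right, at 1.25, and the 4 keratins without a blue point did not pass the filter in MDA-MB-231.

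The difference between these responses was tested with the interaction term of a limma model over all 16 samples, for the 6 keratins tested in both lines. KRT19 responded more in MDA-MB-468 than in MDA-MB-231, by 0.54 ± 0.06 (adjusted p = 2.28e-06), and so did KRT8, by 0.15 ± 0.05 (adjusted p = 0.0319), where 30.9% of the 17115 genes tested differed. The call for KRT8 was lost without any of 9 libraries, namely MDA-MB-231 replicates 1, 2 and 3 in low and 2 and 3 in high glucose, or MDA-MB-468 replicates 2 and 4 in low and 3 and 4 in high glucose (adjusted p from 0.0512 to 0.0699). The response of KRT18 differed by 0.02 (95% interval −0.08 to 0.12), that of KRT7 by 0.08 (−0.04 to 0.21), that of KRT16 by −0.19 (−0.86 to 0.47) and that of KRT17 by −0.38 (−1.77 to 1.01), none of them past the threshold (adjusted p of 0.317 and above). KRT7 passed when low-glucose MDA-MB-231 replicate 4 was left out (adjusted p = 0.043). Whether KRT5, KRT6A, KRT6B and KRT14 respond differently in the lines cannot be read from these data, since MDA-MB-231 held almost none of their reads.

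To compare keratins with each other, levels were divided by the length of the canonical transcript (normalised counts per kilobase). In low-glucose MDA-MB-468 the order was KRT8 at 23207 ± 809, KRT19 at 18347 ± 650.3, KRT18 at 13998 ± 410, KRT7 at 11722 ± 412, KRT5 at 6769 ± 244, KRT17 at 4997 ± 204, KRT16 at 1134 ± 60.8, KRT14 at 665 ± 3.58, KRT6B at 188 ± 4.45 and KRT6A at 7.61 ± 2.97 (SD, n = 4). No 2 neighbours overlapped. In high glucose the order was the same, but KRT19 at 25875 ± 1163 had come within the spread of KRT8 at 26605 ± 961. In low-glucose MDA-MB-231 KRT19 came first at 8845 ± 527, followed by KRT8 at 5929 ± 263, KRT18 at 4730 ± 202 and KRT7 at 1955 ± 137, and then KRT17 at 5.69 ± 4.63 and KRT16 at 5.02 ± 1.98, which overlapped. The order among the luminal keratins depends on the length used. The levels of KRT8 and KRT18 also depend on how reads shared with pseudogenes were counted. With the longest transcripts in place of the canonical ones, KRT8 stood at 14466 and KRT18 at 9473 in low-glucose MDA-MB-468, below KRT19 and KRT7, respectively, whose lengths are the same under both choices.

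Of the reads assigned to genes of the deposited table, the 10 keratins took 0.189% in low-glucose and 0.195% in high-glucose MDA-MB-231. In MDA-MB-468 they took 0.839% ± 0.0287 and 0.974% ± 0.0288 (SD, n = 4). Basal keratins made up 17.0% of the summed keratin level per kilobase in MDA-MB-468 in low glucose and 16.9% in high glucose. Within this share, KRT14 went from 0.821% to 1.19%, KRT16 from 1.40% to 1.78% and KRT6B from 0.232% to 0.463%, and KRT17 went from 6.17% to 5.44% and KRT5 from 8.35% to 8.01%. KRT19 went from 22.6% to 26.8%. In MDA-MB-231 the basal share was 0.0527% and 0.0723%.

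The balance of type II to type I keratins per kilobase was 1.07 ± 0.00600 in low-glucose and 0.963 ± 0.00681 in high-glucose MDA-MB-468, with no overlap between the groups (1.06 to 1.08 against 0.955 to 0.971). In MDA-MB-231 it was 0.580 ± 0.00709 and 0.594 ± 0.0101, with overlap. Among the pairs that usually assemble together in MDA-MB-468, the ratio of KRT5 to KRT14 went from 10.2 to 6.73, that of KRT7 to KRT19 from 0.639 to 0.486, that of KRT6B to KRT16 from 0.166 to 0.261 and that of KRT8 to KRT18 from 1.66 to 1.75. These ratios are descriptions of the same levels, with the same limit on shared reads, and were not tested. With the longest transcript of each gene in place of the canonical one, the balance in MDA-MB-468 was 0.982 and 0.861, so its place above or below 1 depends on the length used while the direction with glucose does not.

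**Figure D3:**
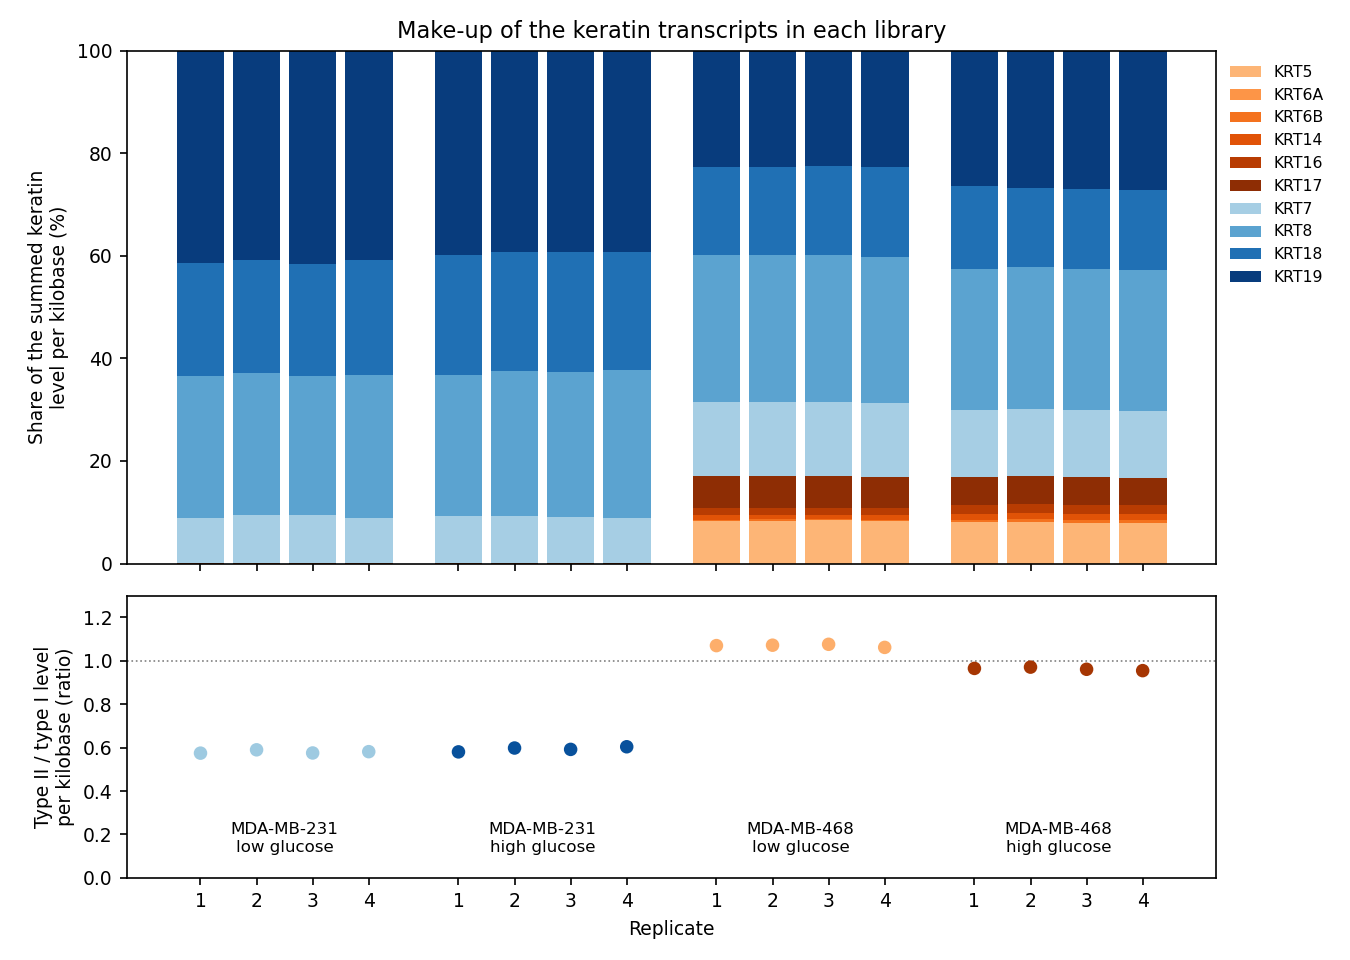
Share of each keratin in the summed keratin level per kilobase (top, stacked bars, %) and the ratio of type II to type I keratins per kilobase (bottom) in each of the 16 libraries. Basal keratins (orange) fill about 17.0% of the bars of MDA-MB-468 and are too small to see in MDA-MB-231, and the ratio falls from 1.06 to 1.08 in low glucose to 0.955 to 0.971 in high glucose in MDA-MB-468.

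Other epithelial keratins were followed as a list of 23 genes, of which 11 were in the table under their symbols. In MDA-MB-468, 4 of the 7 tested were called higher and none lower, with a median log2 fold change of 0.15, beside 24.9% and 22.7% of all genes tested. KRT15, a type I keratin of basal cells, went from 2399 ± 113 to 4275 ± 166 normalised counts (0.83 ± 0.04, adjusted p = 8.91e-11, limma), and KRT13, a keratin of internal stratified epithelia, from 56.9 ± 8.15 to 86.6 ± 9.68 (0.60 ± 0.14, adjusted p = 0.00199). In MDA-MB-231, 1 of 3 tested was called higher (5.71% of all genes were), again KRT15 (98.6 ± 18.7 to 138 ± 19.2, adjusted p = 0.0191), a call lost without high-glucose replicates 1 or 4 or low-glucose replicate 1 (adjusted p from 0.0514 to 0.0696). Of 18 pseudogenes of the keratin family in the table, 10 were tested in MDA-MB-468. Of these, 2 were called lower, KRT18P34 and KRT8P12, and none higher, beside 22.7% and 24.9% of all genes tested. KRT8P12, the most abundant in that line, stood at 144 ± 3.58 and 122 ± 8.77 (adjusted p = 0.0409, limma), opposite in direction to KRT8. The other KRT8 pseudogenes tested went in both directions, and none was called. Among them KRT8P3, which shares the most stretches with KRT8, stood at 38.3 ± 2.10 and 46.6 ± 4.21 (adjusted p = 0.156, limma).

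The proteins that anchor keratin filaments or regulate their assembly gave calls in both directions. Of 14 tested in MDA-MB-468, 3 were called higher and 5 lower (median log2 fold change −0.04), where 24.9% and 22.7% of all genes were. Of 14 tested in MDA-MB-231, 1 was called higher and 5 lower (median −0.07), where 5.71% and 9.37% of all genes were. TCHP, which encodes trichoplein, a protein that binds keratin filaments, rose by 1.04 ± 0.07 in MDA-MB-468 (285 ± 30.5 to 584 ± 21.9, adjusted p = 5.62e-09, limma), and DST, a linker of filaments to hemidesmosomes, rose by 0.30 ± 0.04 (adjusted p = 4.26e-05). PLEC, which encodes the linker plectin, fell by 0.36 ± 0.05 in MDA-MB-468 (adjusted p = 7.64e-06) and by 0.23 ± 0.04 in MDA-MB-231 (adjusted p = 0.000851). After the correction for transcript length the fall of PLEC in MDA-MB-231 was 0.15 (adjusted p = 0.0148, limma). Under the 18 alternatives for MDA-MB-468, the log2 fold change of PLEC ranged from −0.42 to −0.22 and that of DST from 0.26 to 0.49. Both calls held in all of them, so the size of these changes depends on the processing. Genes of 5427 bases or more had a median log2 fold change of −0.08 in MDA-MB-468. In MDA-MB-231 those of 5584 bases or more had a median of −0.05. The desmosomal gene PKP2 fell by 0.41 ± 0.04 in MDA-MB-468 (adjusted p = 4.59e-07), and PNN, a gene for a desmosome-associated and nuclear protein, fell by 0.32 ± 0.04 in MDA-MB-231 (adjusted p = 7.50e-05).

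Transcription factors of epithelial cells were followed as a list, which also held TRIM29, a marker gene. Of its genes, 11 of 17 tested in MDA-MB-468 were called higher and 4 lower (median log2 fold change 0.20), against 24.9% and 22.7% of all genes. ELF5, a factor of luminal progenitors, rose by 0.91 ± 0.13 (55.8 ± 7.40 to 105 ± 10.2, adjusted p = 2.72e-05, limma) and TRIM29, a marker of basal epithelium, by 0.60 ± 0.03 (4534 ± 215 to 6873 ± 116, adjusted p = 6.69e-10). KLF4, a factor of epithelial differentiation, fell by 0.47 ± 0.11 (adjusted p = 0.00185) and TFAP2A fell by 0.18 ± 0.04 (adjusted p = 0.00106). TP63, which encodes p63, a regulator of KRT5 and KRT14 in basal cells, was below the abundance limit for naming and was chosen after its values were seen. It was at 61.7, 66.4, 55.1 and 68.3 normalised counts in low-glucose and at 25.3, 16.4, 18.3 and 21.9 in high-glucose MDA-MB-468, a separate and lower range, and it fell by 1.59 ± 0.18 (adjusted p = 2.59e-06) while KRT5 and KRT14 rose. It kept its direction and call under all 18 alternatives run for that line. In MDA-MB-231, where 5.71% of all genes were called higher and 9.37% lower, 1 of 12 tested was called higher, KLF4 by 0.24 ± 0.04 (adjusted p = 0.000157), and 2 lower, SOX9 and TFAP2C, the latter lost without high-glucose or low-glucose replicate 1 (adjusted p of 0.0816 and 0.0544).

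Of 12 squamous differentiation genes tested in MDA-MB-468, 10 were called higher and none lower (median log2 fold change 0.41), against 24.9% and 22.7% of all genes. KLK5 and KLK7, which encode proteases of the skin surface, rose most, by 1.07 ± 0.04 (3032 ± 125 to 6365 ± 258, adjusted p = 3.83e-12, limma) and by 0.81 ± 0.12 (57.9 ± 5.30 to 102 ± 9.77, adjusted p = 4.26e-05). IVL, which encodes the cornified envelope protein involucrin, and SCEL did not pass. In MDA-MB-231, 3 of the list were tested and none was called. The plot of the gene lists shows the spread of each list beside the 10 keratins.

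**Figure D4:**
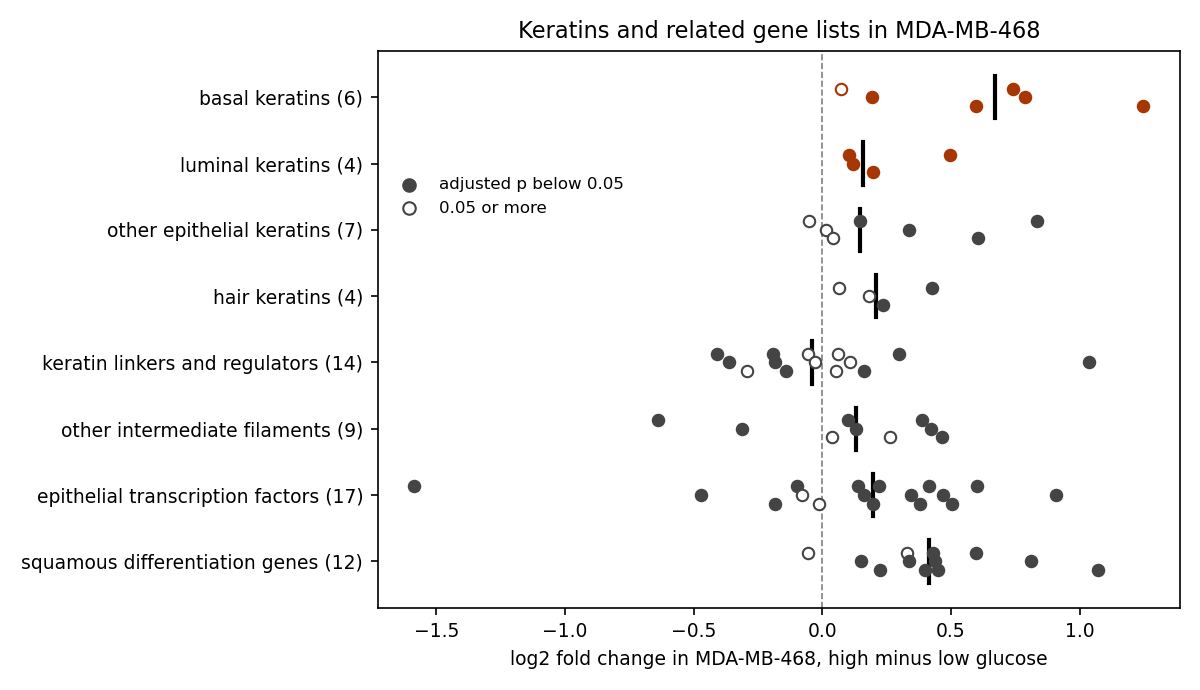
log2 fold change from low to high glucose in MDA-MB-468 for each gene tested in the 2 keratin classes and 6 related lists (number tested in brackets). Filled points had an adjusted p below 0.05, black bars are list medians and the dashed line is the median of all genes tested, at 0.00. The squamous differentiation genes have a median of 0.41, and TP63 is the point farthest to the left, at −1.59.

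For each keratin with at least 5 CPM in some group, the 2 genes with the most similar profile were found by the Euclidean distance of centered log2(value + 1) over the 16 samples, among 12106 genes. KRT6B lay nearest to SLC5A1 (distance 0.74) and GGT6 (0.93), KRT14 to LY6D (1.45) and CRISP3 (1.57), KRT16 to EFS (1.33) and PSCA (1.52), KRT5 to MGP (2.15) and FXYD3 (2.26) and KRT17 to SYT7 (1.94) and ZFP42 (2.52). The luminal keratins lay closer to their neighbours, KRT8 to CHCHD2 (0.18) and MMP15 (0.28), KRT18 to NAA10 (0.21) and GMDS (0.24), KRT19 to LY6E (0.25) and MACROD1 (0.27) and KRT7 to KIAA1522 (0.28) and FOXRED2 (0.36). Both the line difference and the glucose response count towards these distances. KRT5, KRT14, KRT16 and KRT17 held few reads in MDA-MB-231, and KRT6B held none. How far the scatter of such low counts adds to the distances was not tested.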

How the data were processed

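RNA-Seq was analyzed for 16 samples of MDA-MB-231 and MDA-MB-468 cells, grouped by line and glucose from the sample titles. Per the study's methods, the authors trimmed reads with Trimmomatic and aligned them with TopHat to hg19 and Ensembl release 70, whereas the submitters' processing notes list hg38 and edgeR. The counting program and its use of strand are not given in the sources used here. The unit of the deposited table is a scaled signal: the authors had divided each library's reads per gene by 1 size factor. Dividing by the step of each library gave whole reads for 100% of the values (off by at most 5.82e-05), and these recovered reads were rounded.

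Symbols (16633 of 18332 genes), transcript lengths (17418) and coordinates came from GENCODE v44 lifted to GRCh37, 1-based. Tests used limma 3.58.1 (R 4.3.3) on log2(value + 1) for all genes that reached 0.5 CPM in 2 samples of the line's 8, or of all 16, with lmFit and eBayes with trend, two-sided, Benjamini-Hochberg adjustment over all genes tested and a threshold of 0.05. Fold changes on this scale understate those of low genes. The steps were tested on simulated data. The alternatives were other pseudocounts, filters and scalings, edgeR 4.0.16 and DESeq2 1.42.0 on the recovered reads, the replicate number as a block, a length correction and leaving out each sample. The reads assigned to the genes of the deposited table were 14094597 to 24425916 per sample, and the full sequencing depth cannot be read from them. Folds between lines are ratios of the reads summed over a group and scaled by its summed size factors, with exact 95% counting intervals.

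The 10 keratins and the gene lists were chosen with earlier results of these data known. From each list, up to 2 called rises and 2 called falls per line with a mean of at least 5 CPM were named, and exceptions are marked. Enrichment was not tested.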

Additional observations from a re-analysis of the deposited data

Results flagged for a closer look

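KRT16 in high-glucose MDA-MB-468 was flagged because replicate 4, at 2957 normalised counts, stood apart from the other 3 replicates, which lay within 2804 to 2810. Its gap to the nearest of them took up 0.96 of the group's range, above Dixon's 95% limit for 4 samples. Of 33 groups of 4 tested among the keratins this was the only flag, and chance flags about 1 group in 20. All 4 replicates lay above the low-glucose maximum of 2000.

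KRT19 and KRT8 were flagged because their glucose responses differed between the lines in the interaction test of limma. The response of KRT19 was larger in MDA-MB-468 than in MDA-MB-231 by 0.54 on the log2 scale (adjusted p = 2.28e-06), with every high-glucose library above every low-glucose library in MDA-MB-468 and overlapping groups in MDA-MB-231. That of KRT8 was larger by 0.15 (adjusted p = 0.0319), with the same pattern of overlap.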

How the results depend on the processing

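Of the 10 keratins, 9 were called higher in MDA-MB-468, and this number stayed between 8 and 10 under the 18 alternatives. The 10 keratins higher in MDA-MB-468 than in MDA-MB-231 in low glucose were all called under all 26 alternatives. The 1 call in MDA-MB-231, KRT18, was less stable. The number of keratins called there was 0 without the filter on low values, 0 with the replicate number as a block, 0 with the correction for transcript length, 0 with both, and 2 with quantile normalization, which added KRT8, and it ranged from 0 to 1 when 1 library was left out. Of the 2 differences between lines, KRT19 passed under all 26 alternatives, and the number called was 1 with quantile normalization, which lost KRT8, and 1 to 3 when 1 library was left out. No keratin called in any alternative turned its direction.

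Same-numbered samples of the glucose groups deviated together little or not at all (correlations of −0.04 to 0.03 over the genes passing the filter). Such correlations cannot exclude a weak pairing, and the labels do not say whether the numbers pair the samples. With the block, KRT18 had an adjusted p of 0.0766 and KRT15 one of 0.0535 in MDA-MB-231, and VIM was lost as well (adjusted p = 0.057). The block changed no keratin call in MDA-MB-468 or in the comparisons of the lines.

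In MDA-MB-468, KRT6A was lost without the filter (adjusted p = 0.0542) and KRT7 under quantile normalization (adjusted p = 0.548). The cause was not tested. With the longest transcripts, the ratio of type II to type I keratins was 0.469 and 0.483 in low-glucose and high-glucose MDA-MB-231, and 0.982 and 0.861 in MDA-MB-468. With TMM factors, KRT7 and KRT18 joined the keratins whose groups did not overlap in MDA-MB-468, which made 8 of 10, where 22.4% of all genes tested did not overlap in that direction.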

Other observations

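Intermediate filament genes other than keratins were called in both directions. In MDA-MB-468, 5 of 9 tested were called higher and 2 lower (median log2 fold change 0.13), against 24.9% and 22.7% of all genes. In MDA-MB-231 none of 8 was called higher and 5 were called lower (median −0.12), against 5.71% and 9.37% of all genes. LMNB1, which encodes the nuclear lamina protein lamin B1, fell by 0.46 in MDA-MB-231 (1910 ± 20.1 to 1387 ± 55.6, adjusted p = 2.20e-07, limma) and rose by 0.39 in MDA-MB-468 (3076 ± 97.7 to 4027 ± 81.3, adjusted p = 4.57e-08). LMNB2 fell by 0.44 in MDA-MB-231 (adjusted p = 2.56e-07). SYNM, which encodes synemin, rose by 0.42 in MDA-MB-468 (adjusted p = 0.000232), where INA fell by 0.64 (adjusted p = 6.31e-08) and BFSP1, a gene for a lens filament protein, fell by 0.31 (adjusted p = 0.00168).

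VIM, which encodes vimentin, the filament protein of mesenchymal cells, was named after its values were seen. It showed a line pattern opposite to that of the keratins, at 93877 to 99379 normalised counts in low-glucose MDA-MB-231 and 15.8 to 26.9 in low-glucose MDA-MB-468. In high glucose it was at 89663 to 91218 and at 18.5 to 35.4. Its fall in MDA-MB-231 (0.09 on the log2 scale, adjusted p = 0.0262, limma) was lost without any of high-glucose replicates 1 to 4 or low-glucose replicates 1 or 3 (adjusted p from 0.0545 to 0.097). It was also lost without the filter on low values (adjusted p = 0.105) and when samples were blocked by replicate number (adjusted p = 0.057). Quantile normalization left no difference. That scaling gives a gene of the same rank in every library the same value, so it could not test this fall.

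Of 17 hair keratins listed, 4 were tested in MDA-MB-468 and 2 were called higher, against 24.9% of all genes. KRT81, which breast cancer cell lines are known to express, went from 1920 ± 115 to 2577 ± 126 normalised counts (adjusted p = 8.39e-07, limma) and KRT38 from 299 ± 17.7 to 352 ± 26.4 (adjusted p = 0.0103). None of the 3 tested in MDA-MB-231 was called.

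Of the 8 epithelial markers, 5 were called higher in MDA-MB-468 and 3 of 7 tested in MDA-MB-231, against 24.9% and 5.71% of all genes, and none lower. The fibroblast markers summed to 33.7 to 40.8 CPM in MDA-MB-231 and 21.9 to 27.1 CPM in MDA-MB-468, the endothelial markers to 12.2 to 16.3 and 27.8 to 37.5 CPM, and the myoepithelial markers to 71.2 to 84.9 and 5.98 to 10.5 CPM.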
